A study of Mus musculus with 12 samples.

Results

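A set of 9 genes of amino acid breakdown was followed in mouse liver, namely Tat, Tdo2, Hpd, Hal, Sds, Prodh, Agxt, Gldc and Aass. Probes were assigned to the members by matching the accession of each array probe to a RefSeq symbol, and no measured value entered that matching. The members themselves were chosen with earlier results of these data known. Their counts beside those of all genes are therefore descriptive and give no independent support. All 9 genes were found, through 10 probes, among 25260 genes or unnamed probes in the filtered table, 14627 of which carry a symbol. Tdo2 was read by 2 probes and each of the others by 1, and all 10 probes were well above background in the sample channel on all 12 arrays.

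The liver is the main site at which surplus amino acids are broken down. Their nitrogen goes to urea, and their carbon goes to glucose, ketone bodies or the citric acid cycle. The genes followed here encode early or committing enzymes of these routes, which in textbook physiology rise with dietary protein, fasting, glucagon and glucocorticoids. Hal and Sds are classical genes of periportal hepatocytes, the cells around the vessels that bring blood into the liver lobule.

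Whole-liver RNA of C57BL/6 mice was read on Agilent two-colour arrays after 2 days on diet. The 4 groups were MycF/F,ERT2-Cre mice fed 0.1% Wy-14643 (n = 4) or the control diet (n = 4), and MycF/F mice fed 0.1% Wy-14643 (n = 3) or the control diet (n = 1, whose RNA the label calls pooled). All mice carried the floxed Myc alleles; the label calls MycF/F,ERT2-Cre a knockout and MycF/F wild type, and ERT2-Cre is a Cre recombinase that acts once a ligand such as tamoxifen is given. Wy-14643 is an agonist of PPARα, a nuclear receptor of hepatocytes. The sources used here do not give the promoter of the transgene, ligand dosing, sex or age, and nothing in them states that the samples of a group are separate animals, so p-values measure only a spread between samples, which may be technical.

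Each value below is a log2 ratio of sample RNA (Cy5) to one pooled liver RNA (Cy3), where 0 means the level of the pool. Such ratios allow comparison of arrays within a gene and not of one gene with another. Between 64.6% and 77.1% of spots on an array were well above background. The scanner software marked 22 of the 120 member spots as outliers, 19 of them on slide 1, which holds 4 of the arrays; marked spots were left out of the fit, so the number of arrays is given with each gene. On Wy-14643, 2 of 3 Myc probes read -1.37 to -0.96 in MycF/F,ERT2-Cre livers against 0.28 to 0.90 in MycF/F livers (limma adjusted p = 0.00385 and 0.00614), and the third read -0.07 to 0.05 against 0.51 to 0.62 (adjusted p = 0.295). Where each probe lies in Myc is not known here, and one that misses the deleted exons is no check of the deletion. All 7 hepatocyte markers in the table were well above background on every array.

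Several of these genes were lower on the Wy-14643 diet and 1 was higher. In MycF/F,ERT2-Cre livers, the comparison with most arrays, 6 of 9 members passed the limma test (adjusted p under 0.05), with Tdo2 higher and Hal, Prodh, Sds, Tat and Agxt lower. Over all genes 16.3% passed in this comparison, 8.91% higher and 7.44% lower. The median change of the 9 members was -0.87 on the log2 scale, against 0.03 for all genes. On the fitted arrays the diets did not overlap in 6 of 9 members, against 21.8% of all genes. These were the same 6 genes that were called. Both readings come from the same values, so the lack of overlap adds no separate support. In whole liver, fewer cells of a kind and less RNA per cell cannot be told apart.

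**Figure D1:**
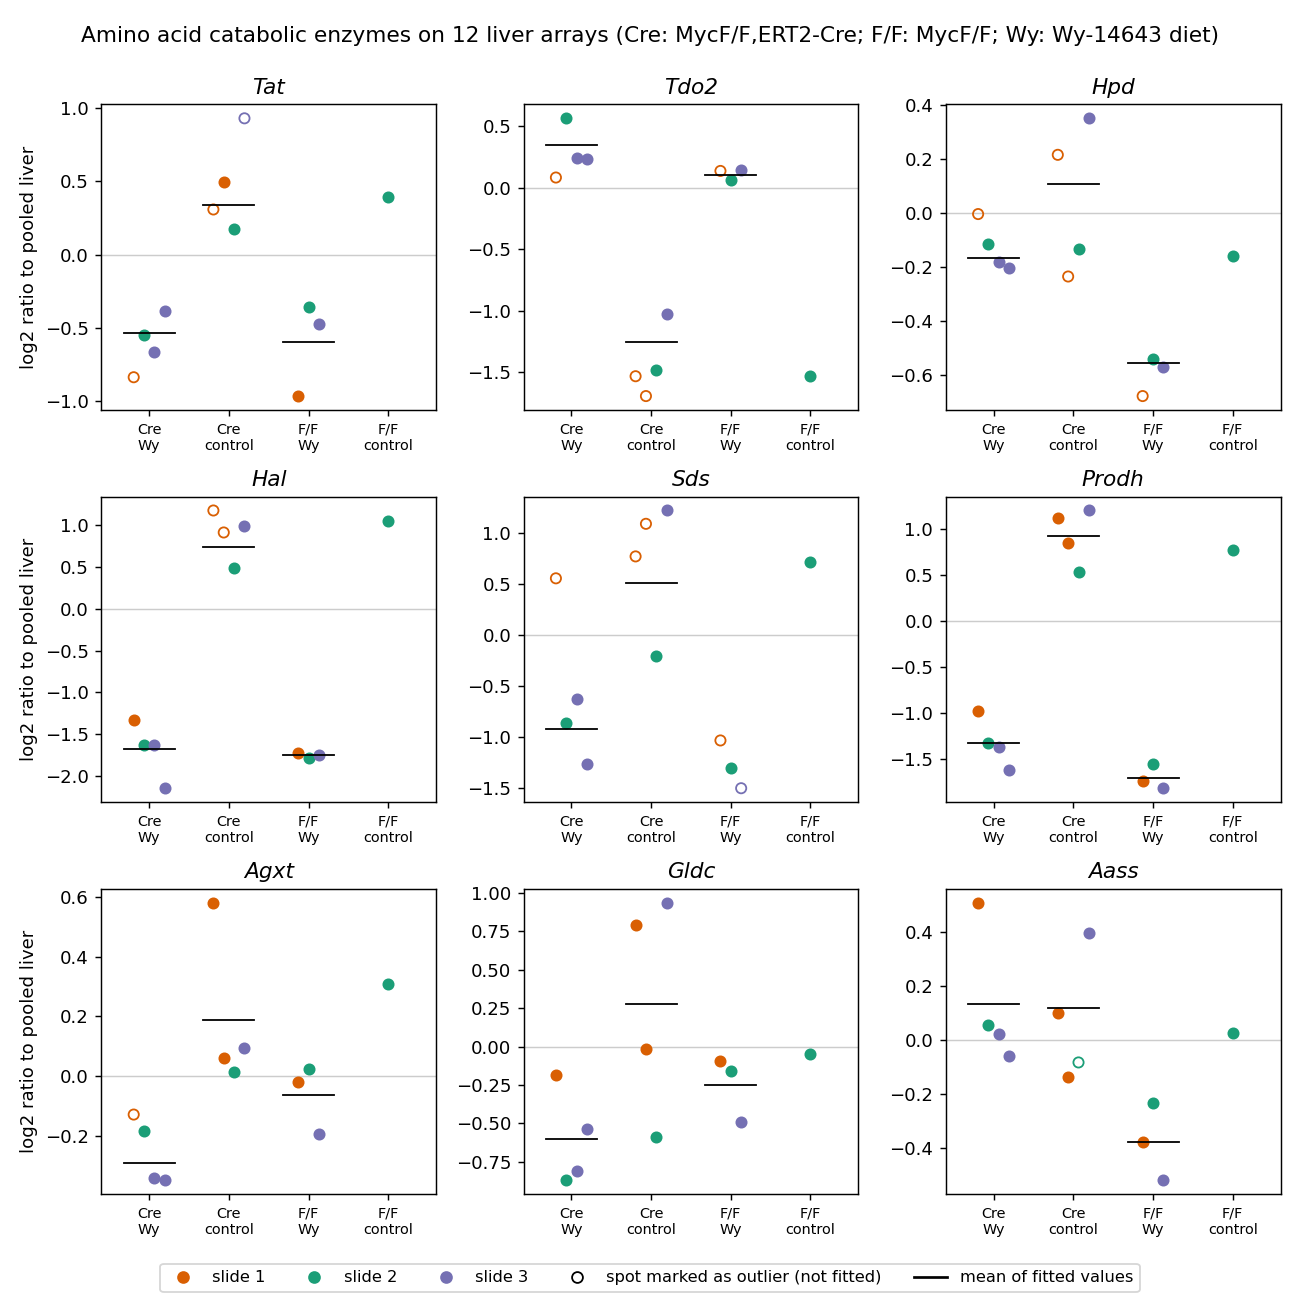
Log2 ratio to pooled liver of each of the 9 genes on each of the 12 arrays, in the 4 groups (Cre stands for MycF/F,ERT2-Cre, F/F for MycF/F, Wy for Wy-14643 diet). Colours are slides, open circles are spots marked as outliers and not fitted, and bars are means of fitted values; Hal and Prodh lie at -0.98 or below on every Wy-14643 array and at 0.49 or above on every control array.

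Hal, histidine ammonia-lyase, opens histidine breakdown by removing ammonia to give urocanate. It read -1.33, -1.63, -1.63 and -2.15 in MycF/F,ERT2-Cre mice on Wy-14643, against 0.49 and 1.00 on the 2 control arrays that were fitted. The MycF/F arrays read -1.72, -1.79 and -1.75 on Wy-14643 and 1.05 on control diet. Every array on Wy-14643 was thus below every control array, and the marked spots of 2 further MycF/F,ERT2-Cre controls also read high, at 1.18 and 0.92. Hal fell by 2.43 on the log2 scale in MycF/F,ERT2-Cre livers (SE 0.20, 5.38-fold lower, limma adjusted p = 2.49e-05) and fell by 2.80 in MycF/F livers (SE 0.27, 6.97-fold lower, adjusted p = 0.000209).

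Prodh, proline dehydrogenase, carries out the committing step of proline oxidation in mitochondria and was the only member with all 12 arrays fitted that passed the test. It read -0.98, -1.32, -1.36 and -1.62 in MycF/F,ERT2-Cre mice on Wy-14643, against 1.12, 0.86, 0.54 and 1.21 on control diet. Its MycF/F values were -1.74, -1.55 and -1.81 on Wy-14643 and 0.78 on control diet. The diets were separated by a gap wider than the range within either group. Prodh fell by 2.25 in MycF/F,ERT2-Cre livers (SE 0.16, 4.76-fold lower, limma adjusted p = 1.7e-06) and fell by 2.48 in MycF/F livers (SE 0.26, 5.58-fold lower, adjusted p = 0.000128).

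Sds, serine dehydratase, turns serine into pyruvate and ammonia and feeds gluconeogenesis. It read -0.87, -0.63 and -1.27 in MycF/F,ERT2-Cre mice on Wy-14643, against -0.20 and 1.22 on the 2 fitted control arrays. The control arrays lay further apart from each other than the Wy-14643 arrays did. The marked spots read 0.56 on the remaining MycF/F,ERT2-Cre array on Wy-14643, inside the control range, and 0.77 and 1.09 on the remaining control arrays. Sds fell by 1.43 (SE 0.39, 2.70-fold lower, limma adjusted p = 0.0483), a call close to the threshold that ended without MycF/F,ERT2-Cre Wy-14643 replicate 2, 3 or 4, MycF/F Wy-14643 replicate 2 or 3, or control replicate 4 of MycF/F,ERT2-Cre mice, with adjusted p of 0.0519 to 0.141. Without the last of these the change was -0.72 (adjusted p = 0.13). For MycF/F mice only 1 Wy-14643 array was fitted, at -1.30, against 0.71 on the control array, a difference of -2.02 (SE 0.61, adjusted p = 0.118).

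Tat, tyrosine aminotransferase, is the rate-limiting enzyme of tyrosine breakdown and a classical glucocorticoid-induced gene. It read -0.55, -0.67 and -0.39 in MycF/F,ERT2-Cre mice on Wy-14643, against 0.50 and 0.18 on 2 fitted control arrays. The MycF/F arrays read -0.97, -0.36 and -0.47 on Wy-14643 and 0.39 on control diet. No array on Wy-14643 reached the level of a control array in either genotype, and the marked spots (-0.84 on Wy-14643, 0.31 and 0.93 on control diet) lay on the same sides. Tat fell by 0.87 in MycF/F,ERT2-Cre livers (SE 0.19, 1.83-fold lower, limma adjusted p = 0.0117) and by 0.99 in MycF/F livers (SE 0.24, 1.99-fold lower, adjusted p = 0.0386). The call in MycF/F,ERT2-Cre livers was lost without control replicate 2 (-0.71, adjusted p = 0.0804), and the call in MycF/F livers without any of 4 Wy-14643 arrays, MycF/F replicate 3 and MycF/F,ERT2-Cre replicates 2, 3 and 4 (adjusted p 0.0583 to 0.0693).

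Hpd encodes 4-hydroxyphenylpyruvate dioxygenase, which acts on the product of Tat. It read -0.11, -0.18 and -0.20 in MycF/F,ERT2-Cre mice on Wy-14643, against -0.13 and 0.35 on control diet. Its MycF/F values were -0.54 and -0.57 on Wy-14643 and -0.16 on control diet. The MycF/F,ERT2-Cre groups overlapped, and the change of -0.27 (SE 0.14, limma adjusted p = 0.266) did not pass the test; without MycF/F,ERT2-Cre control replicate 3 it was -0.52 with adjusted p = 0.0322. The change in MycF/F livers was -0.40 (SE 0.19, adjusted p = 0.363).

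Tdo2, tryptophan 2,3-dioxygenase, opens the kynurenine route of tryptophan breakdown and was the only member that rose. Its brighter probe read 0.56, 0.24 and 0.23 in MycF/F,ERT2-Cre mice on Wy-14643, against -1.48 and -1.02 on 2 fitted control arrays. The MycF/F arrays read 0.06 and 0.14 on Wy-14643 and -1.53 on control diet. All Wy-14643 arrays were above the pool and all control arrays well below it, marked spots included. Tdo2 rose by 1.60 in MycF/F,ERT2-Cre livers (SE 0.16, 3.02-fold, limma adjusted p = 0.000335) and by 1.63 in MycF/F livers (SE 0.22, 3.09-fold, adjusted p = 0.00342). The second probe, with 4 and 3 arrays in MycF/F,ERT2-Cre livers, rose by 1.68 (SE 0.17, adjusted p = 6.44e-05) and, in MycF/F livers, by 1.61 (SE 0.26, adjusted p = 0.0045) in a fit over all probes.

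Agxt, alanine-glyoxylate aminotransferase, turns glyoxylate into glycine in hepatocytes and so keeps it from becoming oxalate. It read -0.18, -0.34 and -0.35 in MycF/F,ERT2-Cre mice on Wy-14643, against 0.58, 0.06, 0.01 and 0.09 on control diet. The diets did not overlap, but control replicates 2, 3 and 4 lay close to the highest Wy-14643 array and replicate 1 lay well above them. Agxt fell by 0.48 (SE 0.13, 1.39-fold lower, limma adjusted p = 0.0305). The call ended without MycF/F,ERT2-Cre Wy-14643 replicate 2, 3 or 4 (adjusted p 0.0505 to 0.104) and with slide as a block (-0.37, adjusted p = 0.129). Agxt in MycF/F livers read -0.02, 0.02 and -0.19 on Wy-14643 and 0.31 on control diet, a difference of -0.37 (SE 0.20, adjusted p = 0.405).

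Gldc encodes the decarboxylating subunit of the glycine cleavage system. It read -0.19, -0.87, -0.81 and -0.54 in MycF/F,ERT2-Cre mice on Wy-14643, against 0.79, -0.02, -0.59 and 0.94 on control diet. The control arrays spanned more than the Wy-14643 arrays, and control replicate 3 lay inside the Wy-14643 range. The change was -0.88 (SE 0.29, limma adjusted p = 0.0557), just outside the threshold. With slide as a block it was -0.85 with adjusted p = 0.0463. Without control replicate 3 it was -1.17 with adjusted p = 0.00485, and without Wy-14643 replicate 1 it was -1.02 with adjusted p = 0.0438. Gldc was called under 6 of 17 other settings and in 2 of 12 fits that left out an array, and stayed uncalled in the rest. Gldc in MycF/F livers read -0.10, -0.16 and -0.49 on Wy-14643 and -0.05 on control diet.

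Aass encodes the bifunctional aminoadipate-semialdehyde synthase that starts lysine breakdown. It read 0.51, 0.06, 0.02 and -0.06 in MycF/F,ERT2-Cre mice on Wy-14643, against 0.10, -0.14 and 0.39 on control diet. These groups overlapped, and the change was 0.01 (SE 0.16, 95% interval -0.33 to 0.35, limma adjusted p = 0.974). Aass in MycF/F livers read -0.38, -0.23 and -0.52 on Wy-14643 and 0.02 on control diet, a difference of -0.40 (SE 0.23, adjusted p = 0.456).

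Each slide held both diets of the MycF/F,ERT2-Cre genotype, so the change could be read within a slide, here with marked spots kept. Hal changed by -2.44, -2.11 and -2.88 on slides 1, 2 and 3, and Prodh by -1.95, -1.86 and -2.69. Tdo2 changed by 1.69, 2.06 and 1.27 on the same slides. These 3 genes kept their sign on every slide, with the change over 1 on each. Sds changed by -0.38, -0.66 and -2.16 and Tat by -1.18, -0.72 and -1.46. Agxt (-0.36, -0.19 and -0.43) and Gldc (-0.58, -0.28 and -1.60) were also lower on each slide, whereas Aass was 0.58, 0.14 and -0.40 and Hpd 0.01, 0.03 and -0.53. Slide 3 carried control replicate 4, which read highest of the 4 MycF/F,ERT2-Cre controls in 7 of the 9 genes, and slide 2 carried control replicate 3, which read lowest in 5.

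In MycF/F livers 4 of 9 members passed the test, Tdo2 higher and Hal, Prodh and Tat lower, against 6.56% of all genes (3.34% higher, 3.22% lower). The median change of the 9 members was -0.40, against -0.00 for all genes. This comparison rests on 1 control array, which is assumed to vary like the arrays of the other groups. All 9 members differed without overlap between the diets here, as did 62.4% of all genes. Only slide 2 held both MycF/F diets, and there Tdo2 changed by 1.58, Hal by -2.83, Prodh by -2.33 and Tat by -0.75. Called members kept their sign under all 16 other settings, but Tdo2 missed the threshold with median centring and without slide 3 (adjusted p = 0.0668 and 0.0882), Prodh with scale normalisation (adjusted p = 0.182), and Tat under 9 settings.

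**Figure D2:**
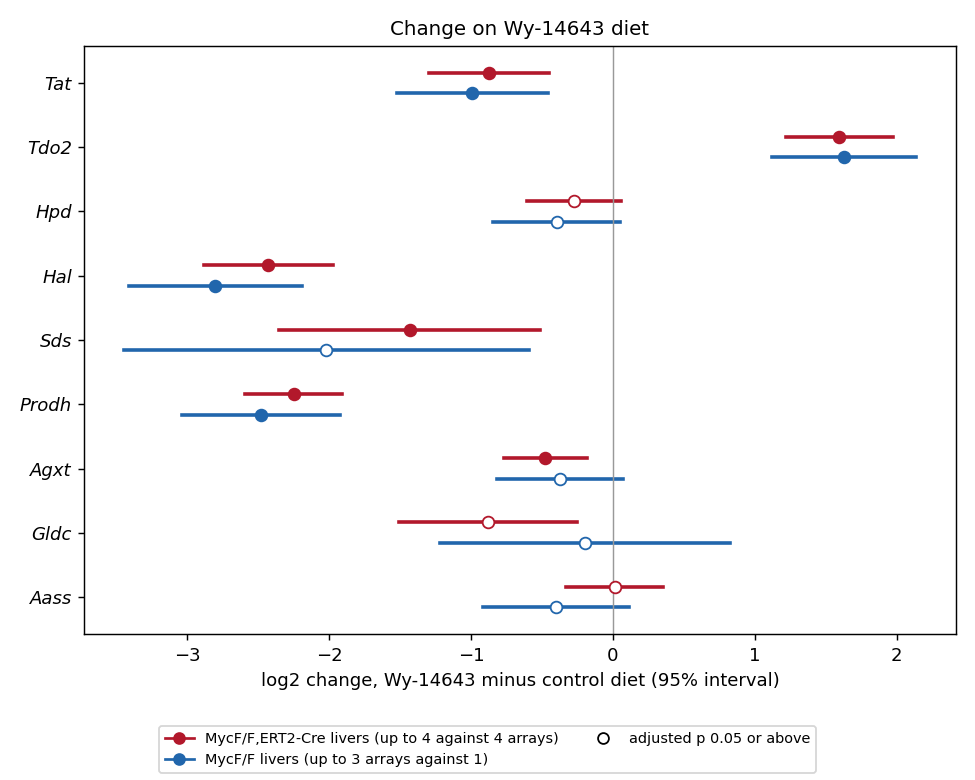
Log2 change of the 9 genes on Wy-14643 against control diet with 95% intervals from limma, in MycF/F,ERT2-Cre livers (red, up to 4 against 4 arrays) and MycF/F livers (blue, up to 3 arrays against 1). Filled points have an adjusted p under 0.05; Tdo2 lies highest, at 1.60 and 1.63, Aass is next to 0 in MycF/F,ERT2-Cre livers, and Hal and Prodh lie lowest in both genotypes.

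No difference in the Wy-14643 change between the genotypes was detectable in any member. By the interaction term in limma, MycF/F,ERT2-Cre minus MycF/F, 0 of 9 members passed at an adjusted or an unadjusted p under 0.05, where 0% and 2.17% of all genes passed. The differences in effect ran from -0.68 for Gldc to 0.59 for Sds, each with adjusted p = 1. The intervals were wide: -0.66 to 0.60 for Tdo2, -0.43 to 0.89 for Prodh, -0.38 to 1.13 for Hal and -1.11 to 2.29 for Sds. Differences within those intervals could not be resolved with 1 MycF/F control array.

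Between genotypes on Wy-14643, 0 of 9 members passed at an adjusted p under 0.05 in limma (background 0.0675%, with 0.0159% higher and 0.0516% lower), and the lowest adjusted p among them was 0.281. At an unadjusted p under 0.05, 3 passed, all higher in MycF/F,ERT2-Cre livers, where 8.47% of all genes passed. Aass differed by 0.51 (SE 0.16, adjusted p = 0.281), Hpd by 0.39 (SE 0.14, adjusted p = 0.49) and Prodh by 0.38 (SE 0.17, adjusted p = 0.573). For Aass the lowest MycF/F,ERT2-Cre array, at -0.06, was above the highest MycF/F array, at -0.23, and for Hpd the same held at -0.20 and -0.54. Within slides 1, 2 and 3, marked spots kept, the difference was 0.87, 0.30 and 0.49 for Aass, 0.67, 0.43 and 0.36 for Hpd, and 0.74, 0.22 and 0.33 for Prodh. Groups without overlap were seen in 4 of 9 members, Aass, Hpd, Tdo2 and Sds, and in 13.9% of all genes; Sds had 1 MycF/F array. On control diet 0 of 9 members passed in limma, adjusted or unadjusted, where 0% and 1.77% of all genes did, and the differences ran from -0.31 for Hal to 0.33 for Gldc. On that diet 3 of 9 members, Tdo2, Hpd and Hal, had groups without overlap, and 29% of all genes did.

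**Figure D3:**
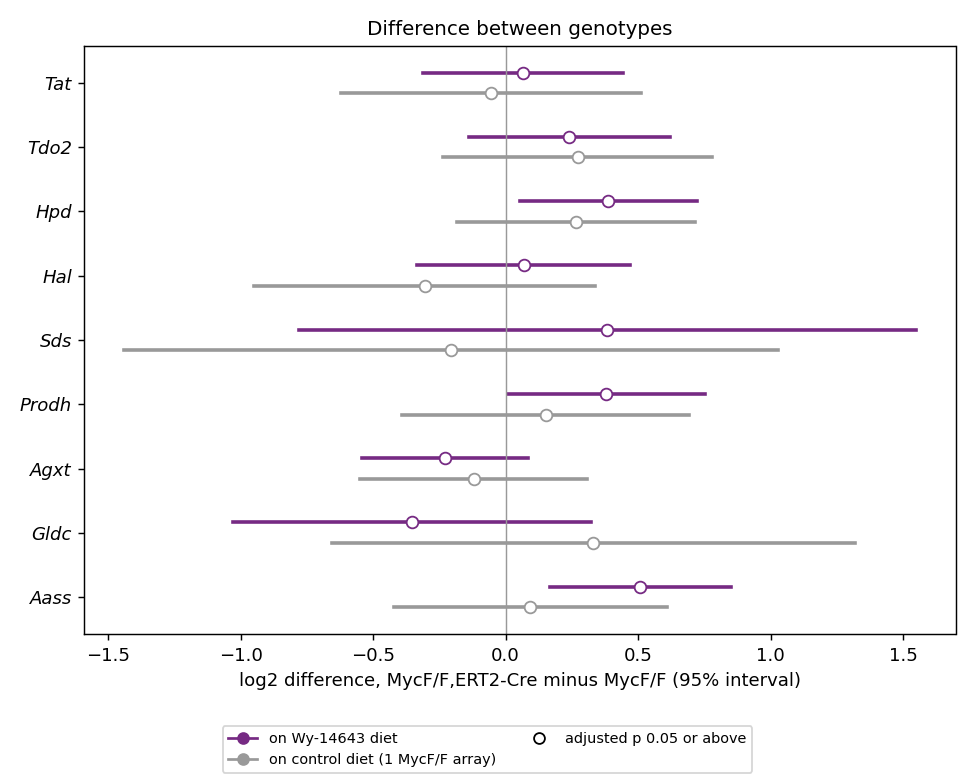
Log2 difference of MycF/F,ERT2-Cre over MycF/F livers for the 9 genes with 95% intervals from limma, on Wy-14643 (purple) and on control diet (grey, 1 MycF/F array). Open points have an adjusted p of 0.05 or above, which is every point; the intervals of Aass, Hpd and Prodh on Wy-14643 lie above 0 before adjustment.

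The neighbouring steps of the same routes were taken from a list of 75 other amino acid catabolism genes, of which 69 were tested in MycF/F,ERT2-Cre livers. There 17 fell, 9 rose and 43 did not pass on the drug diet, with a median change of -0.12 against 0.03 for all genes. The shares of all genes were 7.44% lower and 8.91% higher, and these are also the background for the counts by route below. For MycF/F livers the shares are those given with the 9 members. In MycF/F livers 12 of 66 fell and 4 rose. These counts shrank with median centring, to 4 lower and 3 higher in MycF/F,ERT2-Cre livers and 1 lower and 1 higher in MycF/F livers. By genotype 0 of 68 on Wy-14643 and 0 of 66 on control diet passed in limma. Genes among the 12 called with the widest change in each comparison are named below; any other gene of these routes was picked after its values were seen.

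Both other histidine genes tested fell. After Hal, urocanate hydratase Uroc1 fell by 1.51 in MycF/F,ERT2-Cre livers (SE 0.10, limma adjusted p = 1.06e-06) and by 1.51 in MycF/F livers (SE 0.16, adjusted p = 0.000148). Ftcd, which passes the last carbon unit to folate, fell by 0.70 in MycF/F,ERT2-Cre livers (SE 0.13, adjusted p = 0.00732).

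The tryptophan route held changes in both directions besides that of Tdo2. Of 8 genes tested, the kynurenine aminotransferase Aadat rose by 0.82 (SE 0.09, limma adjusted p = 8.56e-05), and Ido2 (-0.80), Kyat1 (-0.43) and the kynurenine formamidase Afmid (-0.36, adjusted p = 0.0416) fell. Aadat in MycF/F livers rose by 0.58 and Afmid fell by 0.85. Kynureninase Kynu gave -0.13 and the decarboxylase Acmsd -0.36, neither passing the test (adjusted p = 0.421 and 0.253).

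Among serine, glycine and threonine genes 4 of 12 fell and 1 rose in MycF/F,ERT2-Cre livers. Gnmt, the glycine N-methyltransferase that consumes S-adenosylmethionine, read -1.08 to -0.52 on Wy-14643, against 0.74 to 1.36 on control diet (4 arrays each), and fell by 1.95 (SE 0.14, limma adjusted p = 1.76e-06). The demethylases Sardh and Dmgdh fell by 1.44 and 1.00 (limma adjusted p = 1.96e-05 and 3.45e-06). Dld, the shared lipoamide dehydrogenase, rose by 0.49 (adjusted p = 0.00813), and Sdsl, the paralogue of Sds, gave -0.08 (adjusted p = 0.742).

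Around Agxt the glyoxylate reductase Grhpr was the single change among 5 genes and the largest rise among the other amino acid genes. It read 0.45 to 0.72 in MycF/F,ERT2-Cre mice on Wy-14643, against -1.53 to -1.25 on control diet (4 arrays each), and rose by 1.96 (SE 0.09, limma adjusted p = 7.26e-08). Grhpr in MycF/F livers rose by 1.88 (SE 0.14, adjusted p = 1.85e-05). Hao1, which makes glyoxylate from glycolate, gave -0.20 (adjusted p = 0.33).

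Of the proline and ornithine genes besides Prodh, 0 of 4 passed, with changes of -0.13 to -0.09 in limma, among them Aldh4a1, the enzyme after Prodh (-0.09, SE 0.13, adjusted p = 0.724). In lysine breakdown Pipox, the peroxisomal pipecolate and sarcosine oxidase, fell by 1.52 (SE 0.11, adjusted p = 4.16e-05), and Aldh7a1 gave -0.13 (adjusted p = 0.6). In the sulfur amino acid group Cdo1, Cbs and Cth, which make cysteine or oxidise it, fell by 1.31, 1.30 and 1.14 (adjusted p = 0.000554, 0.000324 and 0.0222), as 3 of 7. The cytosolic aspartate aminotransferase Got1 fell by 1.49 (SE 0.31, adjusted p = 0.0131) and the mitochondrial Got2 rose by 0.30 (SE 0.09, adjusted p = 0.0452).

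Of 18 branched-chain genes tested in MycF/F,ERT2-Cre livers 5 rose and 2 fell, and of 17 in MycF/F livers 2 rose and 2 fell. Mccc2 of leucine breakdown rose by 0.86 (SE 0.13, limma adjusted p = 0.00102), and Hibch and Bckdhb rose by 0.53 and 0.51 (adjusted p = 0.00147 and 0.00565). Acadsb and Hibadh fell by 0.93 and 0.58 (adjusted p = 0.000172 and 0.00185). The median of the 18 in MycF/F,ERT2-Cre livers was 0.00.

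**Figure D4:**
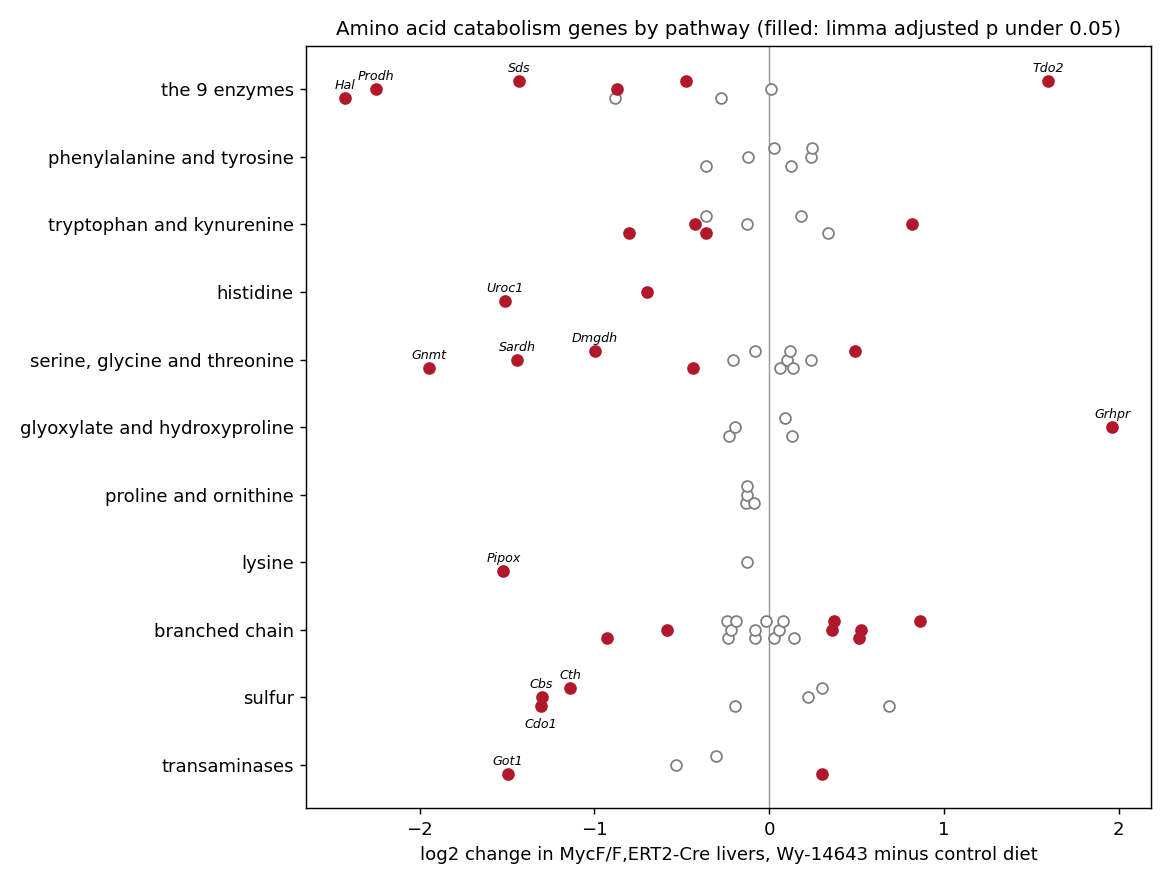
Log2 change on Wy-14643 against control diet in MycF/F,ERT2-Cre livers for the 9 enzymes (top row) and for other amino acid catabolism genes by pathway, 1 point per gene. Filled points have a limma adjusted p under 0.05 and names are given beyond a change of about 1; Grhpr at 1.96 and Tdo2 at 1.60 are the highest and Hal at -2.43 and Prodh at -2.25 the lowest.

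Among the 12 widest called changes in MycF/F livers were Gnmt (-2.62), Got1 (-1.93), Grhpr (1.88), Cdo1 (-1.82), Cbs (-1.59), Pipox (-1.52), Uroc1 (-1.51), Sardh (-1.38), Dmgdh (-1.02), Acadsb (-0.96) and Afmid (-0.85), with limma adjusted p between 1.85e-05 and 0.0312. Of those named, Grhpr was higher and the others were lower on Wy-14643. The comparison rests on the same single control array. For Got1, Cdo1, Cbs, Pipox, Sardh and Acadsb only 2 Wy-14643 arrays were fitted.

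Of 8 amino acid transporters tested in MycF/F,ERT2-Cre livers 3 fell and 0 rose in limma: the glutamate transporter Slc1a2 (-0.87, adjusted p = 8.56e-05), the glutamine and histidine transporter Slc38a3 (-0.82, adjusted p = 0.00529) and Slc7a8 (-0.47, adjusted p = 0.0053). Of 12 listed transcription factors and hormone receptors, Creb3l3 rose by 0.72 (SE 0.13, limma adjusted p = 0.00732). Cebpa fell by 0.74 (SE 0.20), close to the threshold and with 1 control array. Over all genes 8.91% rose and 7.44% fell in this comparison, so 1 of 12 in each direction is near the background. The MycF/F comparison also called Slc38a3 (-1.07), Slc1a2 (-0.80) and Cebpa (-1.10) as lower (adjusted p = 0.0331, 0.00592 and 0.0262). The glucagon receptor Gcgr (-0.00), the glucocorticoid receptor Nr3c1 (0.07) and Hnf4a (0.02) gave adjusted p of 0.99, 0.788 and 0.971.

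Some marker genes of liver zones and cells also differed by diet. In MycF/F,ERT2-Cre livers 7.44% of all genes fell and 8.91% rose, which is the background for the counts below. The shares for MycF/F livers are those given with the 9 members. Of the periportal list other than Hal and Sds, 4 of 5 tested fell in MycF/F,ERT2-Cre livers, among them Ass1 of the urea cycle (-2.69) and the glutaminase Gls2 (-2.17, limma adjusted p = 1.4e-06 and 2.73e-07). The mean of those 5 on an array was -0.86 to -0.53 on Wy-14643 and 0.44 to 0.96 on control diet in MycF/F,ERT2-Cre livers. In MycF/F livers it was -1.13 to -1.04 and 0.43. Marked spots were left out of all array means given here, so arrays of one list can be averaged over different genes. Ass1 had values on 3 MycF/F,ERT2-Cre control arrays, and the pericentral Cyp1a2 on 1. How far this moved the means was not tested. The exception was Arg1, at 0.11 (adjusted p = 0.671). Of 8 pericentral markers 3 fell, and their mean was -0.37 to -0.16 on Wy-14643 against 0.11 to 0.35. Hepatocyte markers fell for 3 of 7 and rose for 1, with array means of 0.16 to 0.52 on Wy-14643 against 0.84 to 1.31. Kupffer cell markers fell for 6 of 10, with array means of -0.33 to -0.14 against 0.17 to 0.90. In MycF/F livers the array means of these lists were also lower on Wy-14643 than on the 1 control array. There pericentral markers read -0.46 to -0.24 against -0.05, hepatocyte markers 0.19 to 0.48 against 0.86, and Kupffer cell markers -0.70 to -0.37 against 0.19. Endothelial markers fell for 2 of 8, stellate cell markers for 3 of 8, lymphocyte markers for 2 of 7 and erythroid markers for 2 of 4, and none of these rose. Of 6 cholangiocyte markers 1 rose (Sox9, 0.55, limma adjusted p = 0.00795) and 1 fell, and of 5 pancreatic acinar markers 1 fell. In lists this short 1 gene is near the background. Among MycF/F livers 1 endothelial and 1 acinar marker fell, and 0 of the stellate, lymphocyte, erythroid and cholangiocyte markers passed in limma. The part of these shifts in the changes of the 9 enzymes was not tested.

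The gene with the profile most like that of a member over the arrays on which it was measured was found by Pearson's r among named genes with values on all 12 arrays. The arrays share slides and fall into 2 diets, so these r values describe likeness and carry no test. Hal, over 10 arrays, was most like Pklr (r = 0.990) and Gls2 (0.988). Prodh, over 12 arrays, was most like Masp1 (0.993) and Abhd14b (0.992), and Tat, over 9, was most like Srd5a1 (0.979) and Tmem51 (0.979). Agxt was most like Necab1 (0.960) and Slc26a5 (0.956) over 11 arrays, Gldc like Shpk (0.944) and Dhx57 (0.907) over 12, and Aass like Galnt5 (0.957) and Agxt2 (0.928) over 11. Tdo2, Hpd and Sds were measured on fewer than 9 arrays and were left out.

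The promoter stretches of the members with the widest change in MycF/F,ERT2-Cre livers are shown to place the 2 falling genes beside the rising one. They come from the RefSeq promoter table of GRCm38.p6, which holds 8 of the 9 members, and are cut to the bases before any annotated transcript of the gene, 5′ to 3′ on the strand of the gene. Capitals mark matches to the motifs searched on both strands: AGGTCA, a same-direction pair of AGGTCA with 1 base between, TGACGTCA (the cAMP response element), CACGTG (the E-box), TGTTCT (a core of glucocorticoid receptor sites), TATAAA (the TATA box) and CCAAT (the CCAAT box). The matches shown do not overlap. Sds is not in that table.
Hal, chr10:93488518-93488767, plus strand: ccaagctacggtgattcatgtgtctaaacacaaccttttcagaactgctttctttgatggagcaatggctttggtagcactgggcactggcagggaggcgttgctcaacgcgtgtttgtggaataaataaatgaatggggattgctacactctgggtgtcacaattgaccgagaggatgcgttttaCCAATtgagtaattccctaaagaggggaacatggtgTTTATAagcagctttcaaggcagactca
Prodh, chr16:18089284-18089440, minus strand: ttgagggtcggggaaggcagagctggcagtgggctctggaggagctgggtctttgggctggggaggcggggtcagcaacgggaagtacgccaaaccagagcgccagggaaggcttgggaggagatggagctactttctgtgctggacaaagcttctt
Tdo2, chr3:81975729-81975978, minus strand: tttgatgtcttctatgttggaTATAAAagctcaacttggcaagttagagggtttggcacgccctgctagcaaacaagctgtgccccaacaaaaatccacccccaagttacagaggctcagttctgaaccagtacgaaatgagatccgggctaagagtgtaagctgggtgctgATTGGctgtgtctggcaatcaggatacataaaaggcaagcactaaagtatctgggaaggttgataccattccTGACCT

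Hal held TATAAA on the opposite strand 28 to 23 bases before the start and CCAAT 64 to 60 bases before it. Tdo2 held CCAAT on the opposite strand 78 to 74 bases before the start, TATAAA 229 to 224 bases before it, and a single AGGTCA on the opposite strand in the last 6 bases. AGGTCA is a core motif bound by many nuclear receptors, and Hal had none in the 250 bases. Over 250 bases AGGTCA was found in 14% of the 32851 promoters of the table, TATAAA in 12.4% and CCAAT in 33.8%, so each of these matches is common. The pair of AGGTCA, found in 0.0335% of promoters, TGACGTCA (1.55%), CACGTG (6.02%) and TGTTCT (16.1%) were in neither Hal nor Tdo2. The Prodh stretch runs 250 to 94 bases before the start, so the bases next to the start, where most of the Hal and Tdo2 matches lie, were not examined in it. Its 157 bases held none of the motifs, of which AGGTCA was in 8.91%, TATAAA in 7.55% and CCAAT in 21% of promoters over that length. A match describes these letters and was not tested as a site.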

How the data were processed

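Two-colour Agilent arrays were read from scanner output that the authors deposited, with the sample in Cy5 and pooled liver in Cy3. The intensity values were made before deposit with the software Agilent Feature Extraction 11.0.1.1, per the submitters' processing notes. From the deposited median signal and background intensity columns, background was corrected by normexp (offset 50). Each array was then normalised by loess in limma 3.58.1 (R 4.3.3). Control spots and spots marked as outliers were left out. The deposited log10 ratio of each spot was used as an alternative. Probes well above background on at least 3 arrays were kept (31846 of 41174), and the brightest probe stood for its gene. A model with 1 mean per group (8 residual degrees of freedom, all 12 arrays) was fitted with lmFit and eBayes, with Benjamini-Hochberg adjustment over all genes and a threshold of 0.05. Intervals are 95%. Besides the members, the text names the up to 12 called amino acid genes with the largest change per comparison and up to 3 per other list; exceptions are stated, and 1 gene of these lists is counted but neither named nor plotted, as it is not reported here. The members and lists were chosen with earlier results of these data known. Alternatives changed the background correction, normalisation, filter, probe rule, outlier spots, slide block, replicate block and the arrays used. The number of arrays limits the precision.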

Additional observations from a re-analysis of the deposited data

Results flagged for a closer look

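Agxt read 0.58 in MycF/F,ERT2-Cre control replicate 1, far from the other 3 arrays of its group, which read 0.01 to 0.09. The gap to the nearest array was 0.86 of the range of the group. Chance alone marks about 1 in 20 groups, and 7 groups of 4 arrays were examined.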

How the results depend on the processing

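Tdo2, Hal and Prodh kept their direction and their call in MycF/F,ERT2-Cre livers under all 17 other settings and whichever array was left out. Of the 6 members called there, 3 remained with the deposited log ratio, with median centring, with Cy5 alone and without slide 3, which are Tdo2, Hal and Prodh. Leaving out arrays gave 4 to 8 members, and the replicate block 5, with Gldc gained (adjusted p = 0.00916) and Sds and Agxt no longer called (0.0502 and 0.0684). Gldc was also called with slide as a fixed or random block (limma adjusted p = 0.0463 and 0.0421), and under 6 of the 17 settings in all. In MycF/F livers 4 members became 2 with median centring, scale normalisation and without slide 3. They ranged over 3 to 5 when arrays were left out, and were 4 with the replicate block. After group means were removed, arrays of equal replicate number correlated at -0.07 to 0.41, over 0.1 in 7 of 10 pairs. Arrays of different number correlated at -0.41 to 0.38, over 0.1 in 9 of 30 pairs. Pairs on the same slide correlated at 0.09 to 0.41, whatever their numbers. The main fit took neither the replicate numbers as pairs nor the slide as a block. For the whole table, 4114 genes called in MycF/F,ERT2-Cre livers became 831 with median centring (69.6% higher against 54.5%), 1299 with Cy5 alone, 2848 with scale and 964 without slide 3. In MycF/F livers 1635 became 184, 258, 319 and 499 in the same order, and 1054 with the deposited log ratio. Other amino acid genes called in MycF/F,ERT2-Cre livers were 17 lower and 9 higher, against 4 and 3 with median centring and without slide 3, and 7 and 1 with Cy5 alone. For MycF/F livers 12 and 4 became 9 and 1 with the deposited log ratio, 1 and 1 with median centring and Cy5 alone, 2 and 0 with scale, and 4 and 1 without slide 3. In MycF/F,ERT2-Cre livers the call was lost for Tat under 6, Sds under 8 and Agxt under 9 of the 17 settings. The cause was not tested. The number of arrays limits precision, most of all the single MycF/F control.

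Directions that turned belong to members not called in that comparison. For Wy-14643 in MycF/F,ERT2-Cre livers Hpd was 0.33 (median), 0.32 (Cy5) and 0.019 (without slide 3), and Aass -0.45 (Cy5), -0.39 (without slide 1) and -0.11 to 0.15 when arrays were left out. In MycF/F livers Gldc was 0.24 (replicate block). By genotype on Wy-14643, Tat was -0.00090 (outlier spots kept), -0.0099 (slide block), -0.053 (both, chosen after seeing the data), -0.12 (without slide 1), -0.19 (replicate block) and -0.12 to 0.19 without an array; Tdo2 was -0.00081 (Cy5), and Hal -0.035 (without slide 1) and -0.050 to 0.22. On control diet Tat was 0.50 (scale), 0.075 (outlier spots), 0.025 (slide), 0.14 (both) and -0.21 to 0.10; Tdo2 -0.044 and Hpd -0.045 (median); Hal 0.045 and Agxt 0.12 (replicate block); Sds 0.32 (Cy5), 0.014 (outlier spots) and -0.92 to 0.51; Agxt 0.35 (Cy5); Gldc -0.050 (slide) and -0.052 (both); Aass -0.12 (deposited log ratio), -0.028 (scale), -0.0010 (outlier spots), -0.0033 (both), -0.044 (without slide 3) and -0.044 to 0.22. In the interaction Tat was -0.49 (scale), -0.076, -0.035 and -0.20 (outlier spots, slide, both) and -0.064 to 0.28; Tdo2 0.26 (median), 0.056 (outlier spots), 0.081 (mean of probes), 0.46 (without slide 3) and -0.26 to 0.20; Hpd -0.033 (replicate block) and -0.12 to 0.36; Prodh -0.28 (scale); Sds -0.12 to 1.30; Agxt 0.049 (median), 0.014 (slide), 0.049 (without slide 1), 0.022 (both) and -0.17 to 0.025; Aass -0.42 (Cy5). Comparisons that need the single MycF/F control have no value without it or without slide 2.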
